A study of Mus musculus with 8 samples.

Results

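A set of 9 genes through which the vessel wall controls clotting and catches platelets and leukocytes were followed in sorted lung cells: Vwf, Selp, Sele, Thbd, Procr, Tfpi, F3, F8 and Pros1. They were chosen by name, as the listed clotting and anticoagulant genes of the vessel wall, and make up 9 of the 27179 genes in the count table. All 9 had enough counts to be tested among 15583 genes.

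Total RNA was sequenced from 8 libraries, 4 of cells with high QZ1 signal (QZ1-hi) and 4 of cells with low signal (QZ1-lo). The source was the lung of C57BL/6 Eml4-Alk mice for both groups (female C57BL/6J in the study's methods), where adenoviral delivery of Cas9 and guide RNAs to the airways joins the Eml4 and Alk genes and starts lung adenocarcinoma. The mice were 11 to 12 weeks past tumor induction and are taken as 18 to 22 weeks old, the age the methods give for age-matched healthy controls. Each tumor-bearing mouse had received 4.5 nmol of QZ1-(PEG2K) into the tail vein 2 h before the lungs were taken. QZ1 is a quenched peptide probe whose Cy5 dye lights up and attaches to nearby cells after a protease cuts its linker. Live cells negative for CD45 and CD11b, both leukocyte surface proteins, were separated by that signal. The 2 groups therefore share the tumor model, the probe and the gate, and the sort set them apart by the strength of labeling. In the study's sort that signal was gated against EpCAM, an epithelial surface protein. The methods describe tumors dissected apart from surrounding tissue, and the labels give only lung. Which of these tissues each library came from is therefore not known. No library from a lung without tumors was analysed here. The fractions are mixtures, and neither the labels nor the methods give their purity or say which QZ1-hi and QZ1-lo libraries came from 1 mouse.

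Endothelial cells keep blood fluid and, when a vessel is injured, help to seal it. von Willebrand factor is stored in Weibel-Palade bodies together with P-selectin, and on release it tethers platelets and carries factor VIII in plasma, while P-selectin and E-selectin slow leukocytes on the vessel wall. Clotting starts when tissue factor, which is kept mainly on cells outside the lumen, meets factor VII, and tissue factor pathway inhibitor blocks that step. On the lumen, thrombomodulin turns thrombin into an activator of protein C, the endothelial protein C receptor presents protein C to this complex, and protein S serves activated protein C as a cofactor.

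Each library held between 18380918 and 26847938 counts. The floor was set at 3 counts, which stood for 0.0894 to 0.179 CPM (counts scaled to a common library size by edgeR's TMM method). Mitochondrial and ribosomal RNA genes took 43.7 to 65.6% of the counts in QZ1-hi and 34.0 to 53.2% in QZ1-lo. Alveolar type 2 cell markers, which identify the tissue as lung, summed to 5609 to 10229 CPM in QZ1-hi and 4406 to 6787 CPM in QZ1-lo. All 8 pan-endothelial markers (Pecam1, Cdh5, Tie1, Kdr, Emcn, Cldn5, Egfl7 and Ecscr) were higher in QZ1-hi by edgeR's test, with summed CPM of 703 to 1749 against 54.9 to 247 in QZ1-lo, and none was at 0 throughout. Fibroblast markers were higher for 6 of 7 genes (1574 to 3042 against 38.8 to 354), pericyte markers for 4 of 7 (192 to 332 against 22.4 to 70.0) and mesothelial markers for 6 of 6 (43.2 to 296 against 6.06 to 39.3). All 6 pan-epithelial markers were lower (538 to 856 against 1582 to 2162). Leukocyte markers were present in spite of the gate, at 3131 to 6692 summed CPM in QZ1-hi and 2292 to 4445 in QZ1-lo, with 0 of 10 leukocyte markers called by edgeR, DESeq2 or limma voom and 0 at an unadjusted p under 0.05. Most of that sum was Lyz2, which mouse alveolar type 2 cells also express, at 3600 ± 1453 CPM in QZ1-hi and 2534 ± 859 CPM in QZ1-lo, while Ptprc, which encodes CD45, was at 131 ± 64.2 and 125 ± 30.0 CPM (SD, n = 4). The part of these cell types in each difference between the groups was not tested, and in sorted mixtures fewer cells of a type and less RNA per cell cannot be told apart.

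Of the 9 hemostasis genes, Vwf, Selp, Thbd, Tfpi and Pros1 were higher in QZ1-hi, F3 was lower, and Sele, Procr and F8 did not pass an adjusted p of 0.05 in edgeR's quasi-likelihood test over all genes. The 5 genes called higher compare with 9.88% of all genes tested and the 1 gene called lower with 8.21%. The median log2 fold change of the 9 genes was 2.42, against 0.02 over all genes tested. Read without a model, every QZ1-hi library lay above every QZ1-lo library for 5 of the 9 genes (11.9% of all genes tested) and below for 2, Procr and F3 (10.7% of all genes tested). Each of the 6 calls held when any single library was left out. The set was thus not uniform: a 10.7-fold higher Vwf stood beside a 3.24-fold lower F3.

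**Figure D1:**
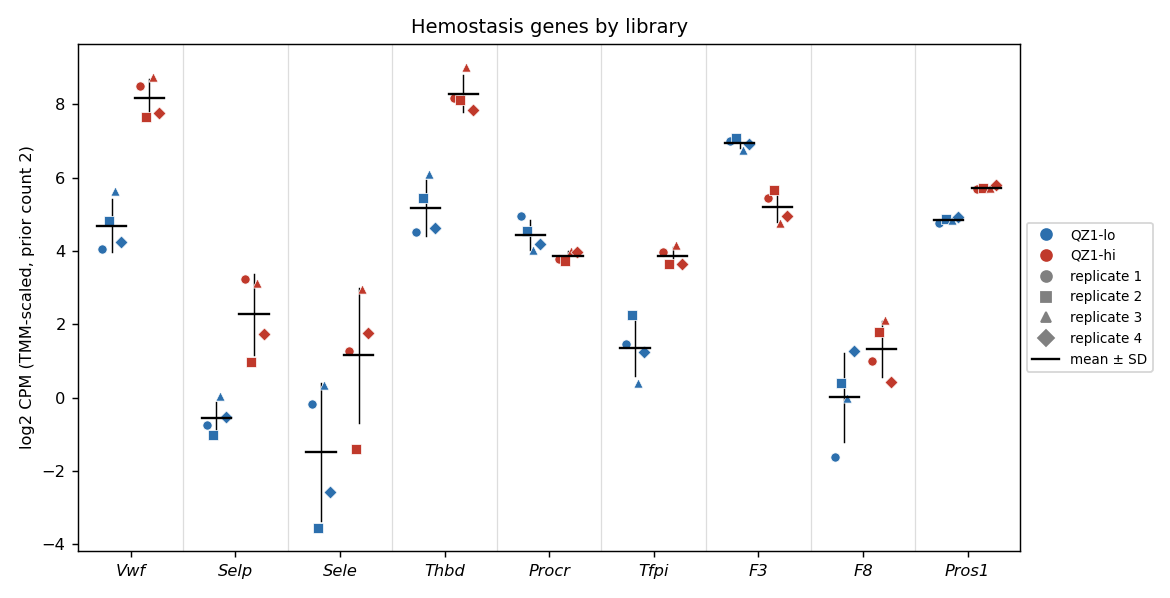
Level of each hemostasis gene in each library, as log2 CPM (TMM-scaled, prior count 2), with QZ1-lo in blue and QZ1-hi in red; marker shapes give the replicate number, which only names a library within its group, and black lines give mean ± SD of 4 libraries. Vwf, Selp, Thbd, Tfpi and Pros1 separate upward in QZ1-hi, Procr and F3 separate downward, and Sele and F8 overlap.

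Vwf encodes von Willebrand factor, the platelet tether and carrier of factor VIII, and lies at chr6:125546774-125686679 on the plus strand of GRCm38. Its level was 365, 203, 427 and 217 CPM in QZ1-hi replicates 1 to 4 and 16.5, 28.3, 49.8 and 19.0 CPM in QZ1-lo replicates 1 to 4. The lowest QZ1-hi library was well above the highest QZ1-lo library. Within each group replicate 3 was the highest, although the numbers do not pair libraries between the groups. The means were 303 ± 110 CPM in QZ1-hi and 28.4 ± 15.2 CPM in QZ1-lo (SD, n = 4), and the log2 fold change was 3.42 (SE 0.38, edgeR adjusted p = 0.000278). The genes whose pattern over the 8 libraries was closest to that of Vwf were Tie1, an endothelial receptor tyrosine kinase, Myzap and Sema3g. Their root mean square difference from Vwf, in log2 CPM centred on each gene's own mean, was 0.18, 0.19 and 0.19. Thbd came 14th in that order at 0.28, nearer to Vwf than any other of the 8 hemostasis genes.

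Selp encodes P-selectin, which lies ready in the same storage granules (chr1:164115264-164150026, plus strand). It was scarce: 221, 38, 151 and 54 counts in the QZ1-hi libraries and 17, 10, 26 and 15 in the QZ1-lo libraries, which gave 9.36, 1.88, 8.73 and 3.22 CPM against 0.51, 0.41, 0.94 and 0.61 CPM. The groups did not overlap, although QZ1-hi replicate 2, at 1.88 CPM, was not far above the highest QZ1-lo library, at 0.94 CPM. Selp was higher in QZ1-hi by 3.22 on the log2 scale (SE 0.57, edgeR adjusted p = 0.00251). In the annotation, 438 of its 4413 exonic bases overlap Gm16548 and 186 overlap Gm16587, both on the opposite strand, and the strand setting of the counting is not given in the sources used here, so reads in those stretches cannot be assigned with certainty.

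Sele, its neighbour on chromosome 1 (chr1:164048234-164057677, plus strand), encodes E-selectin, which is made on demand when endothelium is activated by inflammatory signals. It had 55, 6, 134 and 55 counts in QZ1-hi and 27, 0, 33 and 2 in QZ1-lo, or 2.33, 0.30, 7.75 and 3.28 CPM against 0.80, 0, 1.19 and 0.08 CPM. The count of 0 in QZ1-lo replicate 2 allows up to 0.122 CPM. QZ1-hi replicate 2 fell among the QZ1-lo libraries, so the groups overlapped and the spread within each was wide. The log2 fold change was 2.68 (SE 1.09, edgeR adjusted p = 0.126). DESeq2 gave an adjusted p of 0.0399, so the call depends on the test, and over all alternatives the adjusted p ranged from 0.0399 to 0.373.

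F8 encodes factor VIII, the clotting cofactor that circulates bound to von Willebrand factor and is made by endothelial cells (chrX:75172715-75382615, minus strand). Its counts were 45, 68, 74 and 21 in QZ1-hi and 8, 30, 25 and 57 in QZ1-lo, giving 1.91, 3.36, 4.28 and 1.25 CPM against 0.24, 1.22, 0.90 and 2.33 CPM. QZ1-lo replicate 4, with the lowest summed pan-endothelial markers of all libraries, had the highest F8 of its group and lay above QZ1-hi replicates 1 and 4. The log2 fold change of 1.21 (SE 0.65) did not pass the test (edgeR adjusted p = 0.258). F8 thus did not separate the groups at this depth, in contrast to its carrier.

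Platelets also hold von Willebrand factor and P-selectin. Among 12 listed platelet and megakaryocyte genes, 9 were tested and 5 were higher in QZ1-hi, with summed CPM of 51.2 to 83.8 in QZ1-hi and 22.7 to 36.8 in QZ1-lo. The largest parts of these sums were Itgb3 and Clec1b. Itgb3 was at 24.6 ± 5.18 CPM in QZ1-hi and 14.2 ± 4.15 CPM in QZ1-lo (SD, n = 4). Clec1b was at 12.6 ± 7.08 and 6.84 ± 3.76 CPM and did not pass. Pf4, a platelet chemokine, was at 5.54 ± 1.40 CPM in QZ1-hi and 1.95 ± 0.90 CPM in QZ1-lo (SD, n = 4; log2 fold change 1.51, SE 0.39, edgeR adjusted p = 0.0212). The part of platelet RNA in the Vwf and Selp values was not tested.

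F3 encodes tissue factor, the membrane protein that starts clotting (chr3:121723537-121735048, plus strand), and was the 1 gene of the set that edgeR called lower. Its level was 43.6, 50.2, 27.3 and 30.9 CPM in QZ1-hi and 128, 135, 108 and 122 CPM in QZ1-lo. All QZ1-lo libraries were at least at 108 CPM and no QZ1-hi library exceeded 50.2 CPM. The means of 38.0 ± 10.7 and 123 ± 11.4 CPM (SD, n = 4) differed by -1.70 on the log2 scale (SE 0.19, edgeR adjusted p = 0.000278). The 3 genes closest to F3 in pattern were Wnt7a, a Wnt ligand, Dsp, which encodes the desmosomal protein desmoplakin, and Arl4c, at root mean square differences of 0.15, 0.19 and 0.19.

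Pan-epithelial RNA was lower in QZ1-hi, as F3 was. The summed pan-epithelial markers were 856, 836, 597 and 538 CPM in QZ1-hi replicates 1 to 4 and 2084, 1835, 2162 and 1582 CPM in QZ1-lo, and the 2 QZ1-hi libraries with the most of them also had the most F3. In QZ1-lo this order did not hold, since replicate 3 had the most pan-epithelial RNA and, at 108 CPM, the least F3. Of 7 alveolar type 2 markers, also epithelial, 1 was lower in QZ1-hi, 5 did not pass, and Sftpc, the surfactant protein C gene, was higher (log2 fold change 0.78, SE 0.21, edgeR adjusted p = 0.0231). Relative to the mean log2 CPM of those 6 markers, a comparison chosen after the values were seen, F3 was at -1.41 ± 0.16 in QZ1-hi and -1.21 ± 0.28 in QZ1-lo (SD, n = 4). These ranges overlapped, from -1.57 to -1.25 and from -1.58 to -0.97, whereas on this scale 76.8% of all genes tested had every QZ1-hi library above every QZ1-lo library. The part of epithelial RNA in the difference of F3 was not tested.

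Tfpi encodes tissue factor pathway inhibitor (chr2:84432855-84476775, minus strand). It was at 15.5, 12.5, 17.7 and 12.5 CPM in QZ1-hi and 2.68, 4.72, 1.23 and 2.29 CPM in QZ1-lo. The groups were far apart, and QZ1-lo replicate 3, the QZ1-lo library with the most pan-endothelial RNA, had the least Tfpi of all. Tfpi was higher in QZ1-hi by 2.42 on the log2 scale (SE 0.35, edgeR adjusted p = 0.000915). Its closest genes in pattern, Art4, Nrep and Palm, were farther from it than the closest genes of Vwf, Thbd, Procr, F3 and Pros1 were from those, at root mean square differences of 0.34, 0.38 and 0.39.

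The ratio of the initiator to its inhibitor was lower in QZ1-hi. F3 had 2.81, 4.02, 1.54 and 2.47 counts per count of Tfpi in the QZ1-hi libraries and 47.6, 28.6, 87.9 and 53.2 in the QZ1-lo libraries. F3 exceeded Tfpi in every library, but by far less in QZ1-hi. The log2 ratio of F3 to Tfpi, from scaled CPM, was 1.35 ± 0.57 in QZ1-hi and 5.60 ± 0.64 in QZ1-lo (SD, n = 4), a 19.0-fold change of the ratio (two-sided exact permutation test p = 0.0286, the smallest that 4 against 4 libraries can give, and 0.0357 after Benjamini-Hochberg adjustment over 5 pairs). Since F3 and Tfpi each separated the groups, in opposite directions, their ratio had to separate them too, and its p adds nothing to the values of the 2 genes.

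The sequences just upstream of these genes are shown because F3 and Tfpi moved in opposite directions and because Selp and Sele are neighbouring members of 1 family. Each is the 150 bases before the transcription start in RefSeq (GRCm38.p6, 5′ to 3′ on the gene's strand), which covered 7 of the 9 genes; for Tfpi, listed with more than 1 start, it is the start nearest to that of GENCODE. Capitals mark every match on either strand to motifs of factor families known to act in endothelial or epithelial cells. The letters searched were TGANTCA for AP-1 factors, then GATAA for the GATA family and AGGAAG for the ETS family. KLF factors were searched for as CACCC, and the GC box as GGGCGG.
F3 at chr3:121723387-121723536: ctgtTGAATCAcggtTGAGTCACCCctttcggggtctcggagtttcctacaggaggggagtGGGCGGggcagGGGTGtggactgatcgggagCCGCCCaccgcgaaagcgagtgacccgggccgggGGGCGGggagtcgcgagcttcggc
Tfpi at chr2:84476760-84476909: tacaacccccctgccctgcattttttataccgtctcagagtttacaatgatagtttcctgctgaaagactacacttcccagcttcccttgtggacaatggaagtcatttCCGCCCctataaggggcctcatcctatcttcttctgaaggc
Selp at chr1:164115114-164115263: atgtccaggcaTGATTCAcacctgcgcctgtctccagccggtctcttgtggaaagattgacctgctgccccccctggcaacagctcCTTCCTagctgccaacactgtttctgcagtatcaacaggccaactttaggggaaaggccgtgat
Sele at chr1:164048084-164048233: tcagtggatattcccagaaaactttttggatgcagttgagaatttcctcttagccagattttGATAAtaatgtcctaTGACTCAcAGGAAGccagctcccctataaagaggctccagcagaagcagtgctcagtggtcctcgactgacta
F3 held 2 AP-1 matches, 2 KLF matches and 3 GC boxes, and its second AP-1 match overlaps a KLF match. Tfpi held 1 GC box at the start shown, and the window of its other listed start, not shown, held 1 GATA and 2 ETS matches. Selp held 1 AP-1 and 1 ETS match, and Sele held 1 AP-1, 1 GATA and 1 ETS match, of which the AP-1 and ETS matches are separated by a single base. Of 32851 windows of this length in the RefSeq table, 4.24% held an AP-1 match, 13.3% GATA, 19.7% ETS, 37.4% KLF and 28.6% a GC box. Among the genes whose windows are not shown, Pros1, which was called higher, held 2 KLF matches and 5 GC boxes. Procr and F8 held no match to any of these motifs, but the F8 window belongs to a start 2574 bases from that of GENCODE. A match is a run of letters and was not tested as a binding site, and its relation to the direction of a gene was not tested.

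Thbd encodes thrombomodulin, the thrombin receptor of the protein C pathway (chr2:148404466-148408188, minus strand). Its level was 291, 279, 519 and 229 CPM in QZ1-hi and 22.7, 43.6, 69.2 and 24.5 CPM in QZ1-lo. As for Vwf, the groups were far apart and, within each group, replicate 3 was the highest. The means of 330 ± 129 and 40.0 ± 21.6 CPM (SD, n = 4) gave a log2 fold change of 3.04 (SE 0.38, edgeR adjusted p = 0.000481). The closest genes in pattern were Prx, listed among the aerocyte capillary markers, Ace, which encodes angiotensin-converting enzyme, and Calcrl, at root mean square differences of 0.13, 0.18 and 0.18.

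Procr encodes the endothelial protein C receptor, the partner of thrombomodulin in this pathway (chr2:155751117-155755471, plus strand), and it did not rise with it. It was at 13.7, 13.04, 15.8 and 15.7 CPM in QZ1-hi and 30.9, 23.3, 16.4 and 18.05 CPM in QZ1-lo. Every QZ1-lo library was above every QZ1-hi library, but QZ1-lo replicate 3 only narrowly. The log2 fold change was -0.61 (SE 0.21, edgeR adjusted p = 0.0653). DESeq2 (adjusted p = 0.0393), limma voom (0.0471) and scaling by library size alone (0.00919) passed the threshold, as did edgeR without QZ1-lo replicate 3 (0.0304), and over all alternatives the adjusted p ran from 0.00919 to 0.203. Fanca and Vps37b were the closest genes in pattern, at root mean square differences of 0.14 and 0.16.

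Pros1 encodes protein S, the vitamin K-dependent cofactor of activated protein C, and is the least variable of the set (chr16:62854307-62929346, plus strand). Its level was 51.1, 52.2, 52.3 and 55.9 CPM in QZ1-hi and 26.98, 29.0, 28.4 and 30.2 CPM in QZ1-lo. The libraries of each group lay close together, so that a 1.85-fold difference stood clear of the spread (log2 fold change 0.88, SE 0.11, edgeR adjusted p = 0.000375). With scaling by library size alone the value was 0.42 and did not pass (adjusted p = 0.222); that scaling moved the median of all genes to -0.44. Leprot, Xdh and Cflar were the closest genes in pattern, at 0.10, 0.10 and 0.11.

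**Figure D2:**
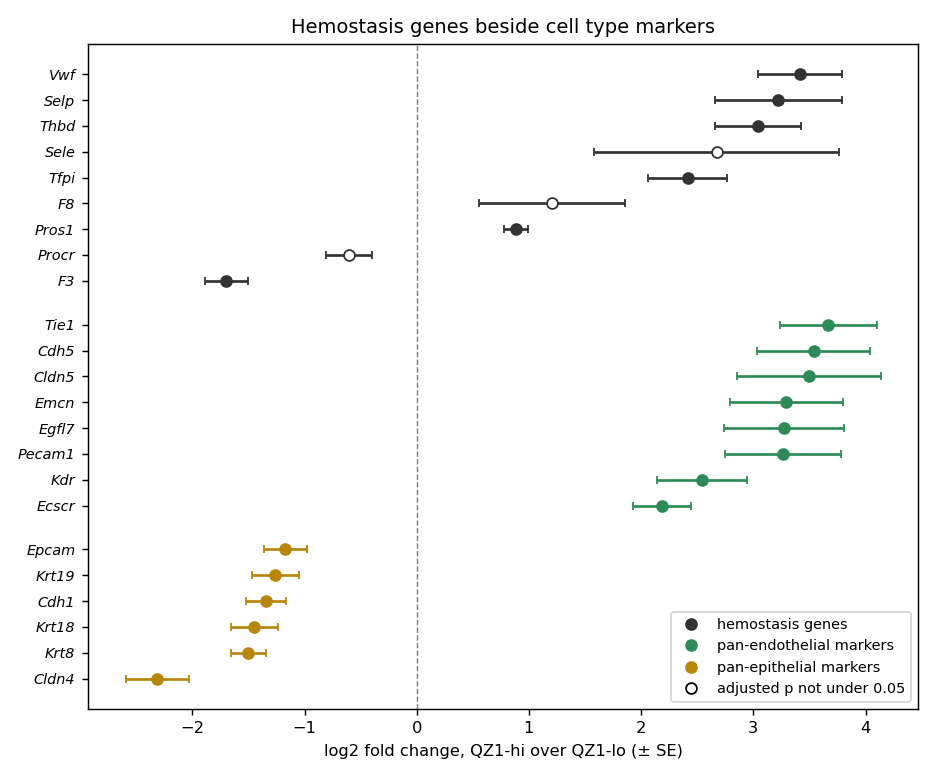
Log2 fold change (QZ1-hi over QZ1-lo, ± SE) of the hemostasis genes, in black, beside the 8 pan-endothelial and 6 pan-epithelial markers; open points did not pass an adjusted p of 0.05. Vwf at 3.42, Selp at 3.22 and Thbd at 3.04 fall in the range of the endothelial markers, and F3 at -1.70 falls in that of the epithelial markers.

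Within the protein C pathway the ratio of the receptors also differed. Procr had 0.0471, 0.0467, 0.0304 and 0.0687 counts per count of Thbd in QZ1-hi and 1.36, 0.535, 0.237 and 0.736 in QZ1-lo. The groups did not overlap, and the log2 ratio of Procr to Thbd was -4.43 ± 0.48 in QZ1-hi and -0.74 ± 1.05 in the QZ1-lo libraries (SD, n = 4; exact permutation test, adjusted p = 0.0357 over 5 pairs). This p too follows from the separation of each gene, in opposite directions. Pros1 rose less than Tfpi: their log2 ratio was 1.87 ± 0.28 in QZ1-hi and 3.50 ± 0.77 in the QZ1-lo libraries (exact permutation test, adjusted p = 0.0357).

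The mean log2 ratio of F8 to its carrier was lower in QZ1-hi, but the separation of the groups depended on the prior count. At a prior count of 2 it was -6.84 ± 0.75 in QZ1-hi and -4.69 ± 1.28 in QZ1-lo (SD, n = 4). These values did not overlap (exact permutation test, adjusted p = 0.0357). In raw counts the groups did overlap. QZ1-hi replicate 2 had 0.0165 counts of F8 per count of Vwf, above the 0.0145 of QZ1-lo replicate 1. With a prior count of 0.5 in place of 2 the difference was -2.06 and no longer passed (exact permutation test, adjusted p = 0.0714). For the selectins no difference was detectable: the log2 ratio of Sele to Selp was -1.12 ± 1.22 in QZ1-hi and -0.92 ± 1.60 in the QZ1-lo libraries (exact permutation test, adjusted p = 0.714), and its sign changed with the prior count.

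**Figure D3:**
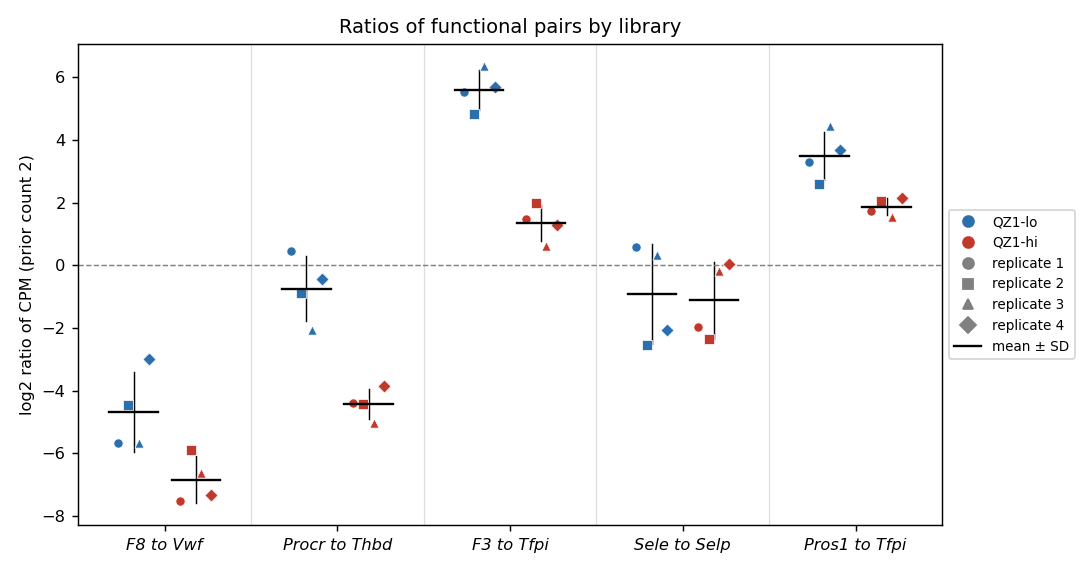
Log2 ratio of CPM (prior count 2) for 5 functional pairs in each library, QZ1-lo in blue and QZ1-hi in red, with mean ± SD of 4 libraries in black; the dashed line is equal CPM of both genes. The ratio of F3 to Tfpi falls from a mean of 5.60 to 1.35, and the ratio of Sele to Selp overlaps between the groups.

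Levels of different genes were compared per kilobase of exon (CPM divided by the union of annotated exons). In QZ1-hi the order was Thbd at 88.5 ± 34.7, Vwf at 18.9 ± 6.87, F3 at 15.04 ± 4.25, Pros1 at 12.9 ± 0.51, Procr at 7.17 ± 0.69, Tfpi at 2.67 ± 0.47, Selp at 1.31 ± 0.86, Sele at 1.17 ± 1.08 and F8 at 0.27 ± 0.14 (SD, n = 4). Thbd stood apart at the top. By this length Vwf, F3 and Pros1 were within their spread of each other, as were Selp and Sele. Per kilobase of the longest transcript the first 3 were farther apart, with Vwf at 34.3, F3 at 20.3 and Pros1 at 16.0. Vwf and F3 changed places when the coding length was used. In QZ1-lo the order opened with F3 at 48.7 ± 4.50, followed by Procr at 10.9 ± 3.22, Thbd at 10.7 ± 5.80 and Pros1 at 7.01 ± 0.33. Vwf came next at 1.77 ± 0.94, then Tfpi at 0.50 ± 0.27, Sele at 0.18 ± 0.20, Selp at 0.14 ± 0.05 and F8 at 0.12 ± 0.09. The most abundant of the 9 transcripts was thus that of thrombomodulin in QZ1-hi and that of tissue factor in QZ1-lo, while Procr and Thbd, and also Sele, Selp and F8, were within their spread of each other in QZ1-lo.

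Set against the mean log2 CPM of the 8 pan-endothelial markers in the same library, the genes formed a graded series, with differences from 0.19 for Vwf to -5.02 for F3. This scale gives each gene per unit of endothelial marker RNA and is a description without a test. Vwf was at 1.60 ± 0.13 in QZ1-hi and 1.41 ± 0.33 in QZ1-lo (SD, n = 4), a difference of 0.19, and Thbd was at 1.72 ± 0.35 and 1.89 ± 0.30, a difference of -0.17. For both, the groups overlapped, so the abundance of Vwf and Thbd per endothelial marker differed by less than the range of the libraries. Selp (-0.45), Sele (-0.65), Tfpi (-0.77) and F8 (-1.96) overlapped as well.

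Procr, F3 and Pros1 did not overlap on this scale: they were lower in QZ1-hi, with differences of -3.85, -5.02 and -2.40. Such a shift was common, since 85.1% of all genes tested had every QZ1-hi library below every QZ1-lo library on this scale, so that the 3 of 9 genes are fewer than the background share. With 5 general capillary markers (Cd36, Cd93, Gpihbp1, Plvap and Ptprb) in place of the pan-endothelial ones, Vwf was higher in QZ1-hi by 0.59 without overlap, and the difference of Thbd became 0.23 with overlap. The log2 fold changes of these 5 markers were themselves uneven, from 1.36 for Cd36 to 3.46 for Gpihbp1. The share of all genes without overlap was not computed on the capillary scale.

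**Figure D4:**
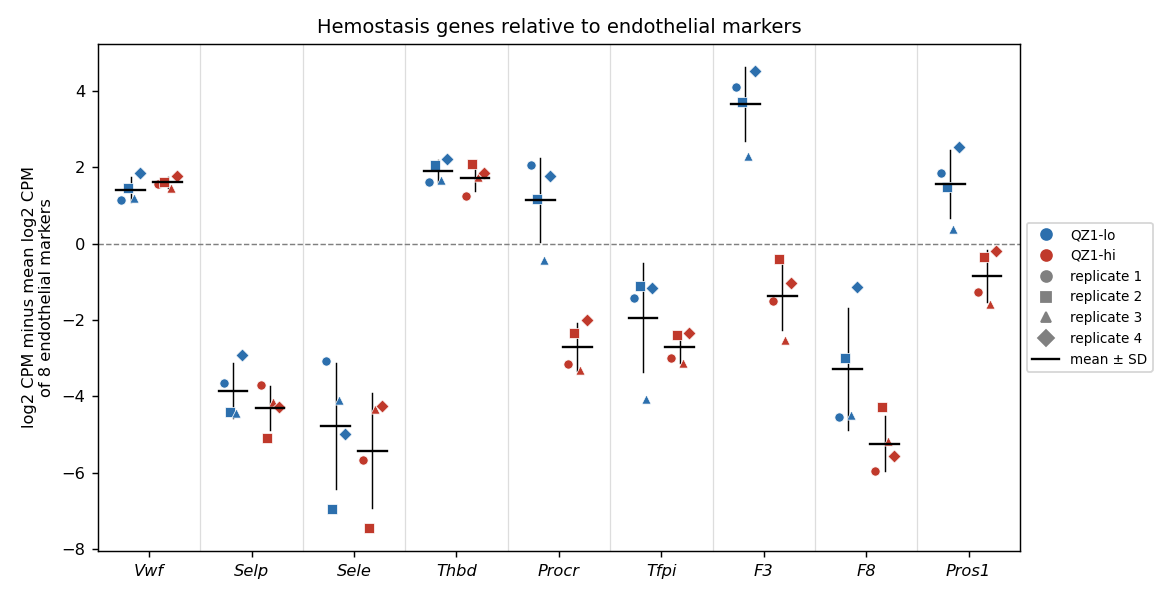
Log2 CPM of each hemostasis gene minus the mean log2 CPM of 8 endothelial markers in the same library, QZ1-lo in blue and QZ1-hi in red, with mean ± SD of 4 libraries. Vwf and Thbd lie at about the same height in both groups, while F3 drops from a mean of 3.66 to -1.36 and Procr from 1.15 to -2.70.

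The wider machinery of hemostasis was followed through 10 lists holding 86 other genes, of which 71 were tested. In QZ1-hi 25 were higher (35.2%, against 9.88% of all genes tested) and 6 lower (8.45%, against 8.21%), and the median log2 fold change was 0.56. With scaling by library size alone these counts were 15 and 10. The genes of Weibel-Palade bodies and von Willebrand factor handling, the company of Vwf and Selp, numbered 13 tested, 6 higher and 1 lower. Mmrn1, a multimerin that is also a lymphatic endothelial marker, had the largest change (log2 fold change 3.93, SE 0.43). Stab2, a scavenger receptor that clears von Willebrand factor, rose by 1.92 on the log2 scale and Rab27a, a GTPase of the granule, by 0.64, whereas Unc13d, a priming factor of granule release, fell from 47.5 ± 5.55 to 15.6 ± 4.31 CPM (log2 fold change -1.61).

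Among the partners of F3 and Tfpi, 0 of 9 tested plasma clotting factors passed edgeR's test, with 1 higher at an unadjusted p under 0.05, while DESeq2 and limma voom each called 1, Kng2, higher. The ligand of tissue factor, F7, was at 41.0 ± 21.01 CPM in QZ1-hi and 31.2 ± 7.23 CPM in QZ1-lo (edgeR adjusted p = 0.459). Of the other anticoagulants, Gas6, a vitamin K-dependent relative of Pros1, was higher (log2 fold change 1.02) and Serpind1, heparin cofactor II, was lower (-1.51), with 6 of 8 tested genes not passing. Ggcx and Vkorc1, the carboxylase and the reductase that protein S needs for its vitamin K-dependent modification, were both higher, at 0.77 and 1.15 on the log2 scale. Of 3 tested receptors of the thrombin receptor family, F2rl1, which trypsin-like proteases and the tissue factor complex activate, was lower (-1.58), and F2r, the main one on endothelium, was at 27.1 ± 4.97 CPM in QZ1-hi and 23.6 ± 3.21 CPM in QZ1-lo (edgeR adjusted p = 0.502).

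Of 6 tested genes by which endothelium restrains platelets, 3 were higher. These were Nos3, the endothelial nitric oxide synthase (log2 fold change 3.01), Ptgis, the prostacyclin synthase (2.85), and Ptgs1 (0.92). Among the genes of fibrinolysis, Plat, which encodes tissue plasminogen activator, was higher, with a log2 fold change of 3.14. Nos3 was also the gene closest to Selp in pattern, at a root mean square difference of 0.30. Of 6 tested vascular adhesion molecules, the wider class of Selp and Sele, 5 were higher, from Vcam1 at 1.66 to Cd34 at 3.38, and Icam1 was lower (-1.03). Among 7 genes that build selectin ligands, St3gal6 was higher (1.01), and St3gal4 (-0.99) and B4galt1 (-0.50) were lower.

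Of 6 transcription factors known to act on hemostatic genes, 5 were higher. Klf2 and Klf4, inducers of Thbd under flow, were at 156 ± 36.9 and 229 ± 46.0 CPM in QZ1-hi and at 47.1 ± 12.1 and 65.1 ± 5.36 CPM in QZ1-lo, and their log2 fold changes were 1.73 (SE 0.22) and 1.81 (SE 0.15). Erg and Gata2, regulators of Vwf, rose by 3.28 and 3.29 on the log2 scale, and Hhex by 1.21. The changes of Erg and Gata2 were thus near that of Vwf, and those of Klf2 and Klf4 were smaller than that of Thbd, differences that were not tested.

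**Figure D5:**
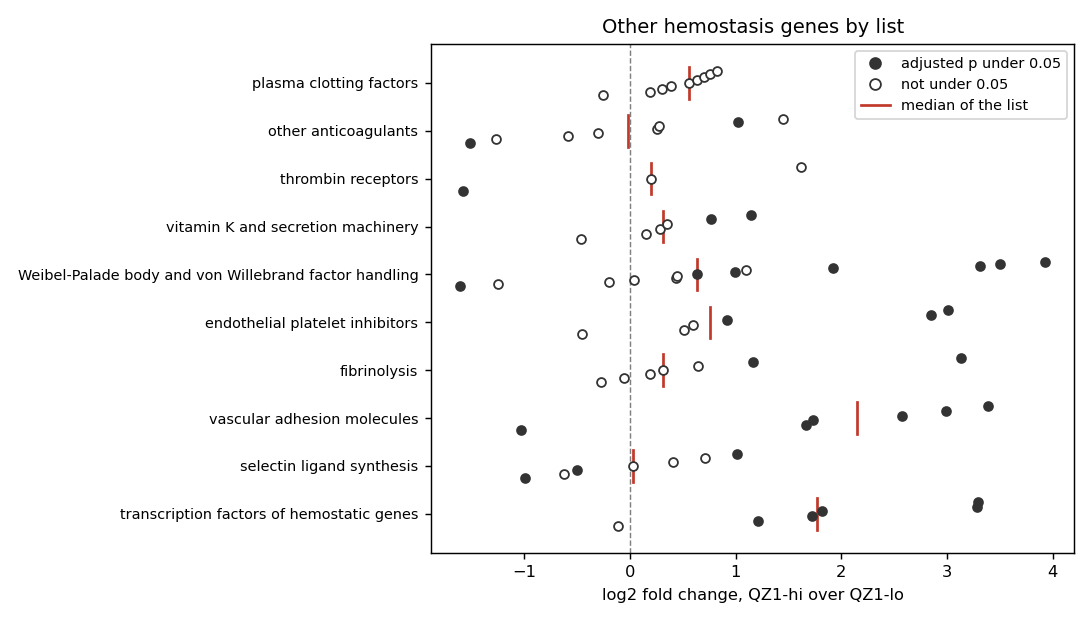
Log2 fold change (QZ1-hi over QZ1-lo) of 71 tested hemostasis genes other than the 9, 1 point per gene by list; filled points passed an adjusted p of 0.05 and red bars are list medians. Plasma clotting factors hold no filled point, while vascular adhesion molecules and transcription factors have medians of 2.15 and 1.77.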

How the data were processed

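Per the labels and the study's methods, the authors built the libraries with a stranded SMARTer total RNA kit, ran a NextSeq500, and assigned reads to genes in Rsubread. What they deposited are raw counts per Entrez Gene identifier, without normalization, for 4 QZ1-hi and 4 QZ1-lo libraries. The submitters' processing notes name the build mm10, and the aligner, annotation and strand setting are not given in the sources used here. Of 27179 identifiers, 25275 were given a RefSeq symbol. Counts were tested in R 4.3.3 with edgeR 4.0.16 (TMM, filterByExpr with a minimum count of 10 and a total of 15, quasi-likelihood test, Benjamini-Hochberg over 15583 genes, threshold 0.05), which was checked on simulated data. SEs were derived from the F statistic (the absolute log2 fold change over its square root). DESeq2 1.42.0, the authors' tool, and limma 3.58.1 were alternatives, beside other scalings, other filters, robust shrinkage, removal of 48 mitochondrial and ribosomal RNA genes, and each library left out. Pair ratios used a prior count of 2 and exact permutation over 70 assignments. Positions and lengths are from GRCm38 with GENCODE M21.

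The 9 genes and all lists were chosen with earlier results of these data known. Named genes are the 9, their listed partners and the called list genes with the largest and smallest change, and the 3 genes closest in pattern to each of the 9. The other list and marker genes were named after their values were seen. Some results under this rule are not reported here. Nothing says that replicates came from separate mice, so p-values measure the spread between these libraries, and floors cover counting error only.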

Additional observations from a re-analysis of the deposited data

Results flagged for a closer look

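In 3 of 60 groups of 4 libraries, 1 library stood far from the other 3 by Dixon's criterion, which chance alone meets in about 1 of 20 groups. None of the 3 was a hemostasis gene. QZ1-hi replicate 2 had the highest summed CPM of mesothelial markers, at 295.7, and of club and ciliated cell markers, at 929.7, among the QZ1-hi libraries. QZ1-hi replicate 4 had the highest summed CPM of leukocyte markers, at 6692. QZ1-hi replicate 2 was also the QZ1-hi library with the least Vwf, Selp and Sele. Without it the log2 fold change of Sele was 3.04 (edgeR adjusted p = 0.0690), still short of the threshold. The part of these cell types in the hemostasis genes was not tested.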

How the results depend on the processing

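The edgeR calls of Vwf, Selp, Thbd, Tfpi and F3 held under every alternative run. With 1 library left out the number of hemostasis genes called stayed at 5 higher and ranged from 1 to 2 lower, and the log2 fold change ranged from 3.18 to 3.83 for Vwf, from 1.86 to 3.42 for Sele, from -0.73 to -0.40 for Procr and from 0.86 to 1.78 for F8. Procr passed, which made 2 genes called lower, with DESeq2 (-0.62), limma voom (-0.67) and scaling by library size alone (-1.09). Sele passed with DESeq2 (2.70). Scaling by library size alone also took Pros1 to 0.42, called 882 genes higher and 2509 lower among all genes, and called 15 and 10 of the other hemostasis genes; the median of all genes moved with it from 0.02 to -0.44. With a prior count of 0.5 the difference in log2 ratio was -2.06 for F8 to Vwf and 0.31 for Sele to Selp, the latter ranging from -0.73 to 0.31 with libraries left out. With general capillary markers Vwf was at 0.59 and Thbd at 0.23. With at least 10 counts in every library Sele and F8 could not be tested. No paired analysis was possible because no label or method statement says which QZ1-hi and QZ1-lo libraries share a mouse, and replicate numbers, given in order of listing, carry no pairing. Libraries with the same number did rank alike in summed erythroid CPM (131, 449, 376 and 1008 in QZ1-hi, 282, 1590, 961 and 3101 in QZ1-lo), a hint from the data that was not used.

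Depth limits Sele, Selp and F8, which had 0 to 134, 10 to 221 and 8 to 74 counts per library. The purity of the fractions is unknown, the groups differ in endothelial, mesenchymal and epithelial RNA, and no library from a lung without tumors was analysed here.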

Other observations

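Markers of vessel types in which hemostasis genes are known to differ were also higher in QZ1-hi. Of 5 tested venous markers 5 were higher, among them Slc6a2 (log2 fold change 3.68) and Nr2f2, a transcription factor of venous identity (1.05). Ackr1, a marker of venules, had too few counts to be tested. Of 6 arterial markers 4 were higher, with Gja4 at 3.49 and Sox17 at 2.94, while Gja5 (2.18, edgeR adjusted p = 0.0631) and Bmx (0.96, edgeR adjusted p = 0.218) did not pass. Of 6 lymphatic markers 5 were higher, with Ccl21a at 4.03, and Prox1 (1.76, edgeR adjusted p = 0.0946) did not pass. Of 4 aerocyte capillary markers 3 were higher, and Car4 (0.99, edgeR adjusted p = 0.0567) did not pass. The summed CPM of the lymphatic list was 87.9 to 205 in QZ1-hi and 4.95 to 22.1 in QZ1-lo.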
